A study of Mus musculus with 6 samples.

Results

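The transcripts of 10 secreted glycoprotein genes were followed in primary cultured renal tubule epithelial cells (RTECs) treated with TGF-β1. The genes encode fibronectin (Fn1), vitronectin (Vtn), tenascin-C (Tnc), the thrombospondins 1 and 2 (Thbs1, Thbs2), SPARC (Sparc), periostin (Postn), the TGF-β-induced protein (Tgfbi), fibulin 1 (Fbln1) and fibrillin 1 (Fbn1). They were chosen by name as a family of matrix genes, with earlier results of these data known, and all 10 were found among the 46517 genes of the count tables. RTECs were grown from kidneys of wild type FvB mice aged 4 to 6 weeks per the labels, a little older than the study's methods state. All 6 cultures were kept in medium with 10% serum and 20 ng/ml EGF until 70% confluent and then for 24 h without serum. The 3 TGF-β1 cultures next received 50 ng/ml TGF-β1 for 24 h, and the 3 CTL cultures were controls. The comparison asks which of these matrix transcripts a profibrotic cytokine changes in tubule cells. No label says whether cultures with different numbers came from different animals. Y-linked transcripts, given below, set replicate 2 apart, but not replicates 1 and 3 from each other. The p-values therefore measure the spread between these cultures.

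Fibronectin is assembled by cells, through integrins, into fibrils on which collagens and other matrix proteins are deposited. Tenascin-C, thrombospondins, SPARC and periostin are matricellular proteins, which adjust how cells attach to and signal from the matrix more than they build it. Fibrillin 1 forms the microfibrils that hold latent TGF-β complexes, and fibulins bind along these and along basement membranes. In the kidney, fibronectin and several matricellular proteins accumulate in fibrosis, and TGF-β is a known inducer of many matrix genes.

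The 6 libraries held 28313080 to 34183497 reads on genes. Normalized counts below are reads scaled by edgeR's TMM method to the geometric mean of the 6 library totals. Cultures with the same replicate number deviated together from their group means, and the replicate 2 cultures stood apart. On the second principal component, which held 29.5% of the variance, they lay at -40.4 and -31.8, and the other cultures lay between 4.64 and 28.8. Their Y-linked transcripts summed to 154 CPM (counts scaled to library size) in CTL and 136 CPM in TGF-β1, against at most 0.177 CPM in the other 4 cultures, which goes against the male mice that the study's methods give and sets replicate 2 apart from the other numbers in this respect too. A list of 10 fibroblast and stromal markers summed to 2626 CPM and 3225 CPM in CTL and TGF-β1 replicate 2, and to 1064 to 1405 CPM elsewhere. It was led by the collagen genes Col1a1, Col1a2 and Col3a1, while Lum, Gli1 and Meox1 stayed under 1 CPM in every library. The 14 tubule markers summed to 1272 CPM and 965 CPM in replicate 2 and to 1888 to 2915 CPM elsewhere. Epcam, Cdh1, Krt8, Krt18 and Pax8 were present in every culture, but Slc34a1, Slc12a1, Slc12a3 and Aqp2, markers of single tubule segments, stayed under 1 CPM. Also on this list, Lrp2 lay at 64.1 to 75.8 CPM in CTL and 27.7 to 40.9 CPM in TGF-β1 cultures. Aqp1 lay at 7.97 to 16.2 CPM in CTL and 0.942 to 1.85 CPM with TGF-β1. Umod lay at 0.310 to 2.01 CPM in CTL and 0.282 to 0.673 CPM with TGF-β1. With TGF-β1, 4 of the 11 tubule markers tested were lower (Cdh16, Pax8, Lrp2 and Aqp1) and 0 were higher, and 0 of the 8 stromal markers tested passed in either direction (edgeR's quasi-likelihood test, adjusted p-value under 0.05, at which 5.00% of all genes tested were higher and 6.69% lower). With the replicate number in the model as a block, 8 tubule markers were lower, and of the stromal markers Col1a1 and Col1a2 were higher and Pdgfrb and Dcn lower, where 15.1% of all genes were higher and 19.1% lower. Of 5 tested markers of mesangium, pericytes and smooth muscle, Des was lower, and with the block Cspg4, Myh11 and Mcam were higher too. Csf1r was lower among 5 tested leukocyte markers, whose sum was 5.96 to 22.1 CPM. Of the endothelial markers, which summed to 2.57 to 4.84 CPM, 0 of 3 passed in either fit, and of 2 podocyte markers tested 0 passed without the block and both, Podxl and Synpo, were lower with it. The part of these marker levels in the results below was not tested. In such bulk libraries, fewer cells of a type and less RNA per cell cannot be told apart.

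TGF-β1 increased the transcripts of fibronectin, tenascin-C and thrombospondin 2 and left that of thrombospondin 1 near its CTL level. Of the 10 genes, 9 had enough reads to be tested, and 3 of these (Fn1, Tnc and Thbs2) were higher and 0 were lower at an adjusted p-value under 0.05. Of all 15862 genes tested, 5.00% were higher and 6.69% were lower. When the replicate number was added to the model as a block, Fbn1, Sparc and Postn were higher as well and Fbln1 was lower, giving 6 higher and 1 lower, against a background of 15.1% and 19.1% of all genes. The median log2 fold change was 0.49 over the 9 genes and -0.0028 over all genes tested. Together the 10 genes took 1.96% to 2.06% of the reads on genes in CTL cultures and 3.16% to 3.42% in TGF-β1 cultures. Fn1 held 0.899% to 0.971% in CTL and 1.69% to 1.92% in TGF-β1 cultures, and Tnc 0.160% to 0.181% and 0.471% to 0.537%. Sparc held 0.176% to 0.358% and 0.239% to 0.463%, and Thbs1 0.564% to 0.633% and 0.540% to 0.564%.

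**Figure D1:**
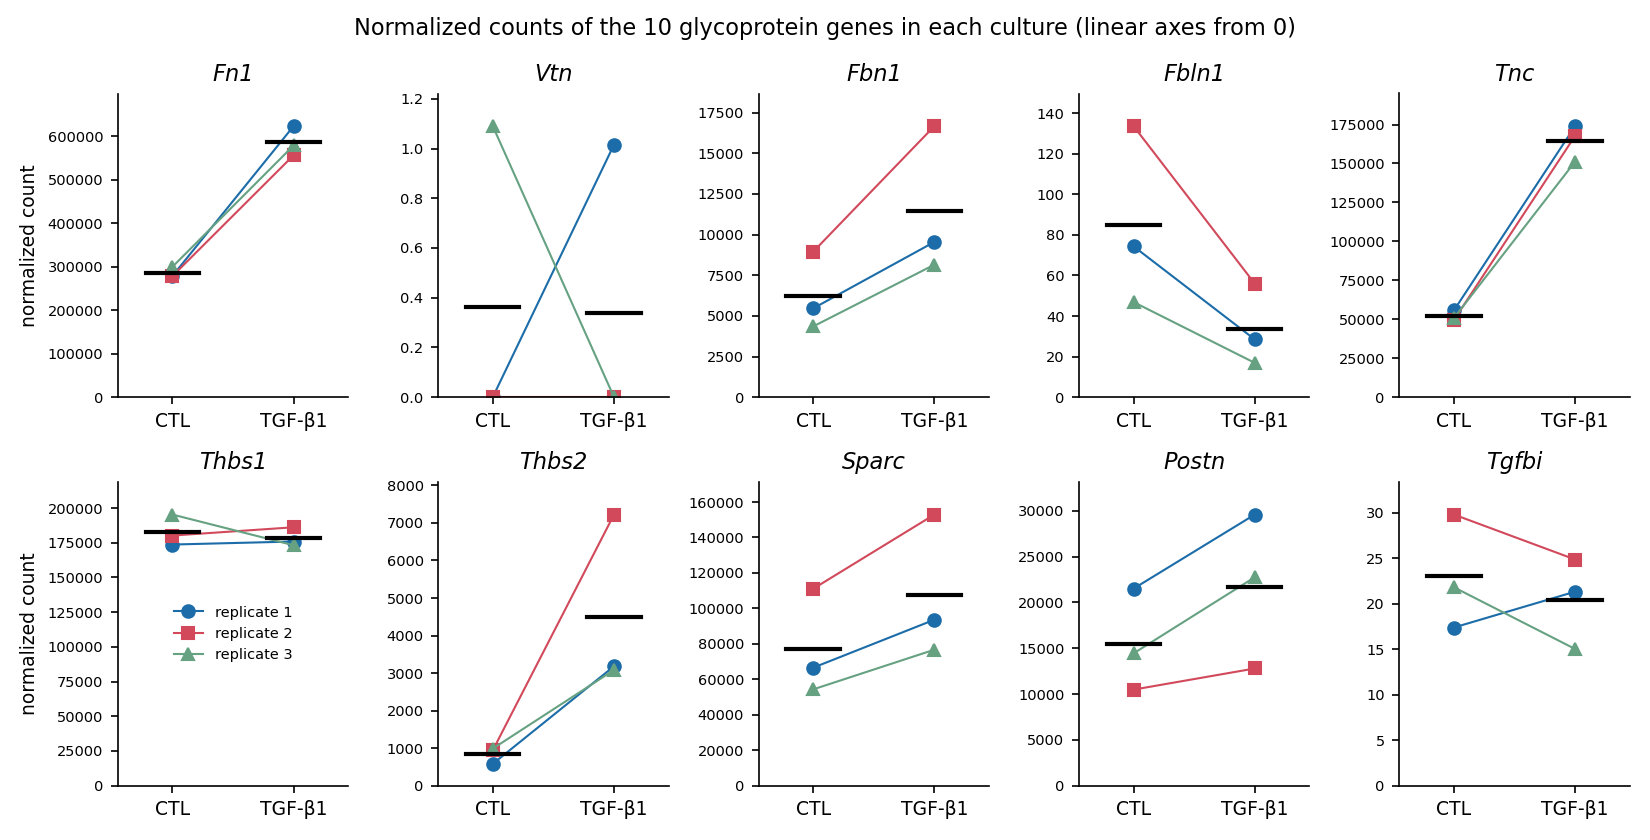
Each panel plots the normalized count of 1 gene (linear axis from 0, scaled separately for each gene) in the 3 CTL and 3 TGF-β1 cultures, with lines joining cultures of the same replicate number and black bars at the group means. Fn1, Tnc and Thbs2 separate completely between the groups, Sparc, Fbn1 and Postn rise and Fbln1 falls along all 3 lines although the groups overlap, and the Vtn panel shows 1 read in each of 2 cultures.

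Fn1 (ENSMUSG00000026193.14, chromosome 1 of GRCm38, 71585520 to 71653200, minus strand) encodes fibronectin, the adhesive glycoprotein of plasma and of fibrillar matrix. Its normalized counts were 278783, 278492 and 299833 in CTL replicates 1, 2 and 3 and 624062, 556971 and 579438 in the TGF-β1 replicates. The groups did not overlap, which held in the same direction for 17.2% of all genes tested, and the 3 CTL cultures lay close together. The CTL mean of 285703 ± 12238 became 586823 ± 34150 (SD, n = 3 each), a rise of 2.05-fold. The log2 fold change was 1.04 (standard error, SE, 0.09, 95% interval 0.82 to 1.26, edgeR adjusted p = 0.00379). Fn1 already had the most or the next to most reads of any gene in the CTL libraries, and it ranked first in all 3 TGF-β1 libraries, where its share went from 0.899% to 0.971% of reads on genes in CTL to 1.69% to 1.92%. These are counts for the whole gene, so splice forms of fibronectin were not separated. The adjusted p-value stayed at or under 0.0372 when any 1 culture was left out.

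Vtn (chromosome 11, 78499091 to 78502324) encodes vitronectin, another adhesive glycoprotein of plasma, made mainly by the liver. It had 1 read in CTL replicate 3, 1 read in TGF-β1 replicate 1 and 0 in the other 4 libraries. A count of 0 allows up to 3 reads, or 0.0878 to 0.106 CPM depending on the library, so Vtn was not detectable above this limit, was not tested and is given no fold change. These limits cover counting error only, since the reads carried no molecular identifiers.

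Tnc (ENSMUSG00000028364.14, chromosome 4, 63959785 to 64047015, minus strand) encodes tenascin-C, a hexameric matricellular protein that is scarce in most adult tissue and appears at sites of injury. Normalized counts of 55674, 49466 and 50765 in CTL became 174019, 167793 and 151238 with TGF-β1, in the order of the replicates. Every TGF-β1 culture lay far above every CTL culture. Means were 51968 ± 3274 and 164350 ± 11774 (SD, n = 3 each), a rise of 3.16-fold. With a log2 fold change of 1.66 (SE 0.09, 95% interval 1.44 to 1.88, edgeR adjusted p = 0.00121), Tnc had a larger rise than Fn1 and one of the smallest adjusted p-values, with 6 of the 15862 genes below it. The pairs of same-numbered cultures gave log2 ratios of 1.64, 1.76 and 1.57.

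The rise of Tnc relative to Fn1 can be read within each library, where scaling cancels. Fn1 reads exceeded Tnc reads by 5.01, 5.63 and 5.91 times in CTL and by 3.59, 3.32 and 3.83 times in TGF-β1 replicates 1, 2 and 3. The log2 ratio fell by 0.62, from 2.46 ± 0.12 to 1.84 ± 0.10 (SD, n = 3 each), with no overlap of the groups. The two-sided exact permutation test gave p = 0.1, the smallest that 3 cultures against 3 allow, and p = 0.133 after adjustment over the 4 ratios tested.

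The thrombospondins parted. Thrombospondins 1 and 2 are closely related trimeric proteins that bind the receptors CD47 and CD36, and thrombospondin 1 is also known to activate latent TGF-β. Thbs1 (ENSMUSG00000040152.8, chromosome 2, 118111876 to 118127133) had 173739, 180210 and 195360 normalized counts in CTL and 175920, 186188 and 173206 in TGF-β1 cultures. The groups overlapped fully, and the pairs moved up, up and down, by log2 ratios of 0.018, 0.047 and -0.17. The log2 fold change was -0.04 (SE 0.08, edgeR adjusted p = 0.811). Its 95% interval of -0.24 to 0.16 leaves room for small changes of either sign.

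Thbs2 (ENSMUSG00000023885.8, chromosome 17, 14665500 to 14694235, minus strand) was scarce in CTL, with 580, 940 and 987 normalized counts, and reached 3182, 7224 and 3083 with TGF-β1. The groups were far apart, but TGF-β1 replicate 2 had more than any other culture and widened the spread. Means were 836 ± 222 and 4496 ± 2363 (SD, n = 3 each), and the rise of 5.38-fold was larger than that of any other gene of the 10. The log2 fold change was 2.43 (SE 0.41, 95% interval 1.42 to 3.43, edgeR adjusted p = 0.0202), and the same-numbered pairs gave 2.45, 2.94 and 1.64. The call was lost without CTL replicate 1 (adjusted p = 0.0907), CTL replicate 2 (0.0516) or TGF-β1 replicate 1 (0.0572), all from edgeR. With the replicate block it held, at an adjusted p-value of 0.00103. Thbs1 reads outnumbered Thbs2 reads 299, 192 and 198 times in CTL and 55.3, 25.8 and 56.2 times in TGF-β1 cultures. The log2 ratio fell by 2.38, from 7.81 ± 0.36 to 5.43 ± 0.64 (SD, n = 3 each; two-sided exact permutation p = 0.1, adjusted p = 0.133), so that Thbs1 still led by a wide margin.

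**Figure D2:**
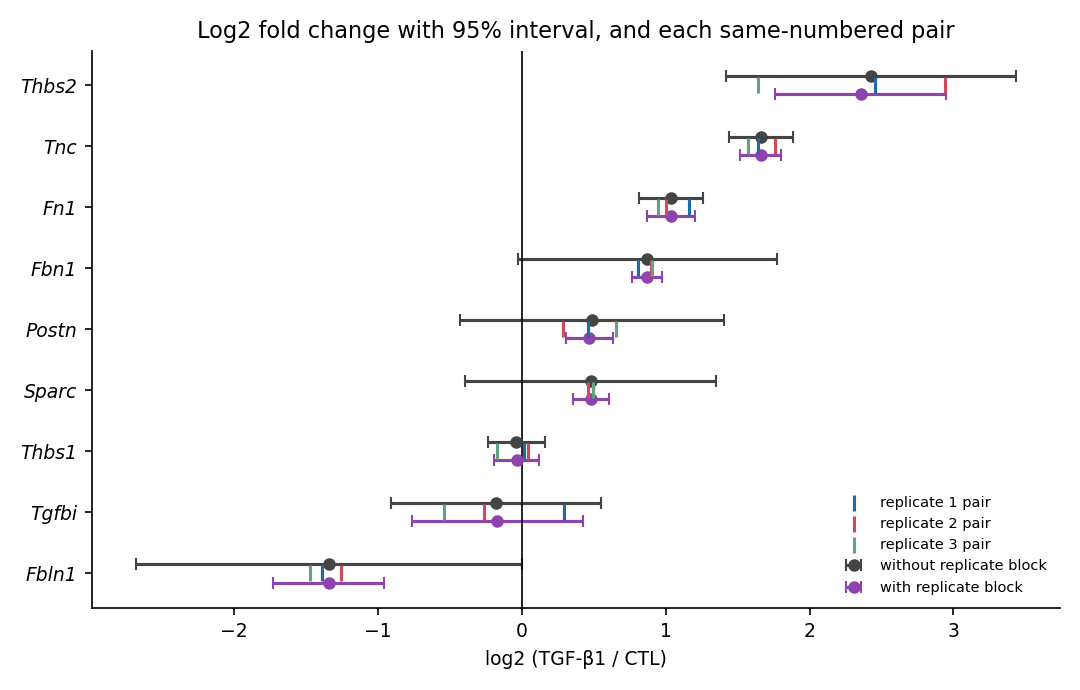
The horizontal axis gives log2 (TGF-β1 / CTL) for the 9 genes tested, with edgeR estimates and 95% intervals without (grey) and with (purple) the replicate block, and ticks at the ratio of each same-numbered pair. Intervals of Fn1, Tnc and Thbs2 stay above 0 in both fits, and those of Fbn1, Postn and Sparc do so only with the block, where the 3 ticks of Sparc nearly coincide.

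Sparc, Fbn1 and Postn rose in all 3 same-numbered pairs, while their levels differed so much between replicate numbers that the groups overlapped. Of all genes tested, 30.4% were higher in all 3 pairs and 32.6% were lower in all 3. SPARC (osteonectin, gene on chromosome 11, 55394500 to 55423183) is a collagen-binding protein that also loosens cell attachment. Sparc counts were 66534, 111035 and 54307 in CTL and 93597, 152930 and 76701 in TGF-β1 cultures. Replicate 2 was highest in both groups, and its CTL value exceeded those of TGF-β1 replicates 1 and 3. Each pair nevertheless rose by nearly the same factor, 1.41, 1.38 and 1.41 times. The summed stromal markers, highest in replicate 2 as Sparc was, went from 1064 to 1405 CPM, from 2626 to 3225 CPM and from 1090 to 1064 CPM in the pairs. Their members split in the third pair, where Col1a1 went from 519 to 575 CPM and Col3a1 from 224 to 129 CPM, and their part in the Sparc values was not tested. The log2 fold change of Sparc was 0.48 (SE 0.36, edgeR adjusted p = 0.44) without the block and 0.48 (SE 0.05, adjusted p = 0.000382) with it.

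Fbn1 (chromosome 2, 125300594 to 125507993, minus strand) followed the same order of cultures as Sparc, with 5460, 8944 and 4350 normalized counts in CTL and 9550, 16680 and 8151 with TGF-β1. Its pairs rose by 1.75, 1.86 and 1.87 times. The Fbn1 log2 fold change of 0.87 (SE 0.37) had an adjusted p-value of 0.184 from edgeR, which became 1.14e-05 with the replicate block (0.87, SE 0.05), 0.0499 with DESeq2 and 0.0171 from edgeR when both replicate 2 cultures were left out. Fbn1 shares 2442 bp of exon with Gm9913 on the opposite strand, and reads there may be missing from its count if strand was not used in counting. The same holds for shorter stretches of Fn1 (292 bp), Thbs1 (208 bp) and Tnc (176 bp).

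Postn (chromosome 3, 54361109 to 54391037) encodes periostin, a fasciclin-domain protein that binds fibronectin, tenascin-C and collagen I and is known as a marker of kidney fibrosis. Its counts were 21494, 10478 and 14430 in CTL and 29581, 12785 and 22745 with TGF-β1. Here replicate 2 was lowest in both groups, opposite to Sparc and Fbn1. The pairs rose by 1.38, 1.22 and 1.58 times. The Postn log2 fold change was 0.49 (SE 0.38, edgeR adjusted p = 0.453), and with the block 0.47 (SE 0.07, adjusted p = 0.00171).

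Tgfbi, the other fasciclin-domain gene of the 10 (chromosome 13, 56609523 to 56639562), was named for its induction by TGF-β in another cell line. It was close to silent in these cultures, with 18, 31 and 20 reads in CTL and 21, 24 and 16 with TGF-β1, or 0.468 to 0.962 CPM. The groups overlapped. The log2 fold change of Tgfbi was -0.18 with a 95% interval from -0.91 to 0.55 (edgeR adjusted p = 0.747), an interval too wide to tell a moderate change in either direction. Postn reads exceeded Tgfbi reads by 352 to 1236 times in CTL and by 514 to 1514 times in TGF-β1 cultures, and the log2 ratio did not separate the groups (two-sided exact permutation test, p = 0.5).

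Fbln1 (chromosome 15, 85205949 to 85286535) was the only gene of the 10 that fell in all 3 same-numbered pairs, and it passed the test only with the replicate block. Fibulin 1 binds fibronectin and is found in basement membranes and elastic fibers. It was scarce, with 77, 139 and 43 reads in CTL and 28, 54 and 18 with TGF-β1. Normalized counts fell from 74.4 to 28.4, from 134 to 55.9 and from 46.9 to 16.9 in replicates 1, 2 and 3. Each pair thus dropped to 0.382, 0.419 and 0.360 of its CTL value, while replicate 2 stayed highest in both groups and TGF-β1 replicate 2 lay above CTL replicate 3. The Fbln1 log2 fold change of -1.34 (SE 0.55) had an adjusted p-value of 0.175 from edgeR and of 0.000639 with the replicate block (SE 0.17). As Fbn1 rose where Fbln1 fell, Fbn1 reads exceeded Fbln1 reads by 66.9 to 92.8 times in CTL and by 298 to 482 times with TGF-β1. This log2 ratio rose by 2.24 (two-sided exact permutation p = 0.1, adjusted p = 0.133).

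The bases just before the start site are shown for genes that were called with or without the replicate block. Only genes whose RefSeq start lies close to the start in the GENCODE annotation were taken. The falling gene, Fbln1, can thus be set beside 3 rising ones, of which Postn, like Fbln1, passed only with the block. Each line gives 250 bases of GRCm38.p6 from RefSeq, 5′ to 3′ on the strand of the gene, and capitals mark AGAC or GTCT, the 4 letters that Smad3 and Smad4 recognise, read on both strands with overlapping matches counted. The windows are chr4:64047016-64047265 (minus) for Tnc, chr17:14694263-14694512 (minus) for Thbs2, chr3:54360857-54361106 (plus) for Postn and chr15:85205699-85205948 (plus) for Fbln1.
Tnc: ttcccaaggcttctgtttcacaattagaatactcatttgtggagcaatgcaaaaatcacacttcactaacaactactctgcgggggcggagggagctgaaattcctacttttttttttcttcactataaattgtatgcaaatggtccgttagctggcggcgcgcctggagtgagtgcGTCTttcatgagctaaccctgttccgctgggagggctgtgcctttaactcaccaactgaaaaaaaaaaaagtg
Thbs2: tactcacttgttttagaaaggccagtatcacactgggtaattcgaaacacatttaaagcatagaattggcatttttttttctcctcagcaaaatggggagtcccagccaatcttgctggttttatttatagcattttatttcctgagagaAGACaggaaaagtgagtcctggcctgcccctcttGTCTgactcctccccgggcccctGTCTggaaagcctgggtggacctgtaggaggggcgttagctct
Postn: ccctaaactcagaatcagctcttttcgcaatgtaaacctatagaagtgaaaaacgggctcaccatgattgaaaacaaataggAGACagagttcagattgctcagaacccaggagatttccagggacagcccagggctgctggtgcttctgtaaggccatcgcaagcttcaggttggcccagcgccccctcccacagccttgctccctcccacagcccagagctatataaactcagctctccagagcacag
Fbln1: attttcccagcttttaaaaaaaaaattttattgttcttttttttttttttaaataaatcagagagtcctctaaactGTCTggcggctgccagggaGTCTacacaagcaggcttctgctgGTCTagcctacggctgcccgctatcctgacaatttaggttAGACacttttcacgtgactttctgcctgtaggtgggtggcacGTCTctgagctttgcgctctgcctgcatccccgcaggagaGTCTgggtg

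The 4 letters occurred 1, 3 and 1 times before Tnc, Thbs2 and Postn, which rose, and 6 times before Fbln1, which fell. Postn and Fbln1 passed only with the replicate block. A second RefSeq window, farther from the GENCODE start and not shown, held 2 matches for Tnc, 3 for Postn and 6 for Fbln1. For Tnc and Fbln1 this window overlaps the one shown. The 6 matches of Fbln1 are the same bases in both, and 1 of the 2 of Tnc is the match already shown. The 4 letters occur in 82.9% of the 32851 promoter windows of this length, at 1.87 per window. A match is therefore a description of the letters and not a site. The palindrome GTCTAGAC, present in 0.167% of windows, was in none of these 4. The RefSeq table used here held windows for 8 of the 10 genes, without Fn1 and Thbs1.

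Per kb of exon, the 10 transcripts differed widely in level. The length used was the union of all annotated exons of a gene, 11685 bp for Fn1 and 6073 bp for Thbs1. It can exceed the length of the transcript made, so the order of genes with close values depends on it. By this measure Thbs1 was highest in CTL cultures at 30150 ± 1827 normalized counts per kb. It was followed by Fn1 at 24450 ± 1047, Sparc at 20404 ± 7882 and Tnc at 6687 ± 421 (SD, n = 3 each). Before division by length, Fn1 had more normalized counts in CTL than Thbs1, with means of 285703 and 183103. Ranges of Fn1 and Sparc overlapped, and the other neighbors in the order did not. The range of Sparc, 14337 to 29312 per kb, also reached into that of Thbs1, 28608 to 32169. Postn (1777), Fbn1 (515), Thbs2 (119), Fbln1 (19.5) and Tgfbi (6.10) followed, and Vtn was at or under 0.537 per kb in every culture. With TGF-β1, Fn1 was highest by this measure at 50220 ± 2923 per kb, clear of Thbs1 at 29382 ± 1128. Sparc at 28443 ± 10569 overlapped both Thbs1 and Tnc, and Tnc at 21146 ± 1515 had come within the range of Sparc. Thbs2 rose to 642 ± 337 per kb and overlapped Fbn1 at 945 ± 377, and Fbln1 at 7.73 ± 4.59 sank into the range of Tgfbi at 5.41 ± 1.32.

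**Figure D3:**
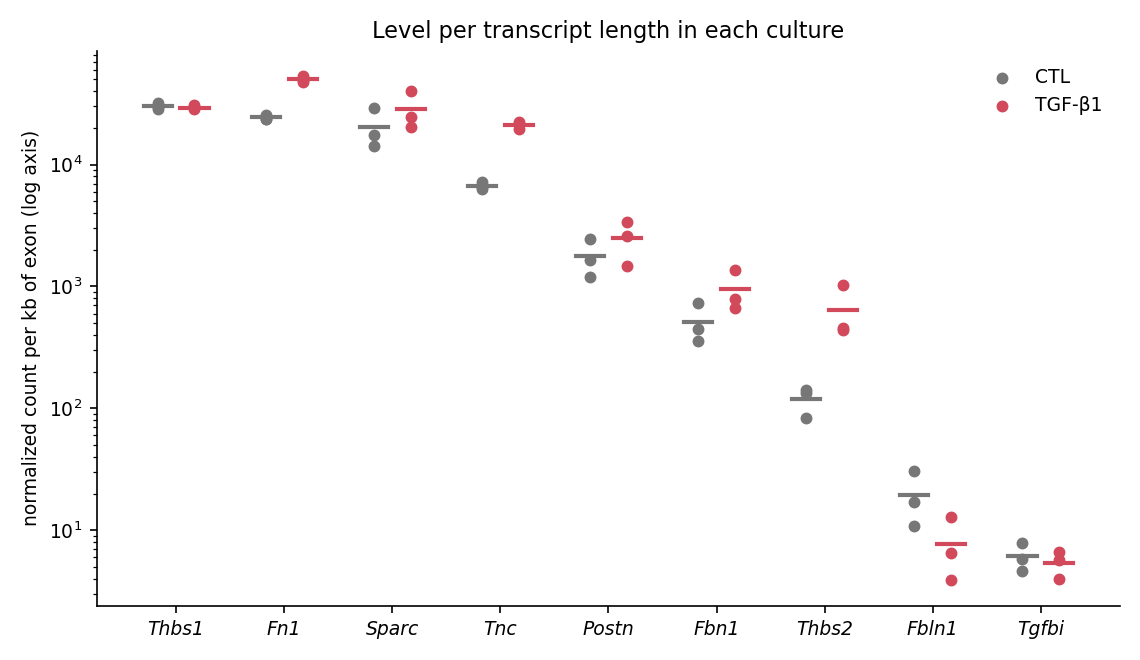
The vertical axis gives the normalized count per kb of exon on a log scale for 9 of the genes (Vtn, at or near 0, is left out), with 1 point per culture, bars at group means, CTL in grey and TGF-β1 in red. Exon length is the union of all annotated exons of a gene, on which the order of close genes depends. By this measure Thbs1 leads in CTL at 30150 per kb and Fn1 leads with TGF-β1 at 50220 per kb. The low genes Fbln1 and Tgfbi overlap with TGF-β1.

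The genes whose pattern over the 6 cultures was most like that of Fn1 were looked for by the root mean square difference between mean-centered log2 normalized counts, among 10909 other genes with a mean of at least 5 CPM. The 5 nearest were Pla2g16 (difference 0.062), Pxdn (0.069), Arntl (0.072), Plin2 (0.081) and Ttyh2 (0.086). Pxdn encodes peroxidasin, an enzyme that crosslinks collagen IV in basement membranes. Its normalized counts were 19470, 18800 and 19928 in CTL and 37599, 37920 and 37383 with TGF-β1. Arntl encodes the clock factor BMAL1, and Plin2 a protein that coats lipid droplets. Tnc, the nearest of the other tested genes of the family, came 316th at a difference of 0.325, and Fbn1, Postn, Sparc, Thbs1, Thbs2, Tgfbi and Fbln1 were farther away. The difference was not scaled, so it includes the size of a change. Tnc rose more than Fn1, by log2 fold changes of 1.66 and 1.04.

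Among receptor genes, some rose, and others were lower only with the replicate block. Of 15 tested genes for receptors and assembly partners, 3 were higher and 0 lower at an adjusted p-value under 0.05, against 5.00% and 6.69% of all genes. With the replicate block 3 were higher and 7 lower, against 15.1% and 19.1% of all genes. The 3 of 15 higher with the block were near the background. Without the block, this list had 1 higher gene when CTL replicate 1, 2 or 3 or TGF-β1 replicate 1 was left out. Itgb3, the integrin chain that with the αv chain binds vitronectin and fibronectin, rose by a log2 fold change of 1.48 (SE 0.10, edgeR adjusted p = 0.00216), from 1184, 1180 and 1420 to 3542, 3165 and 3809 normalized counts. Itga5 and Itgb1, which pair as the classical fibronectin receptor, rose by 1.29 (adjusted p = 0.0429) and 0.56 (adjusted p = 0.0228, both from edgeR). Itgb5 and Tns1, the genes of this list with the highest normalized counts besides these, had log2 fold changes of -0.10 and -0.05. The 7 genes that were lower with the block, none of which passed without it, were the integrin chains Itgav, Itgb6, Itgb8, Itga8 and Itga9, the thrombospondin receptor Cd47 and the syndecan Sdc4. Itgav, the αv chain itself, had a log2 fold change of -0.21 (edgeR adjusted p = 0.311, and 0.0181 with the block), and Itgb6, which pairs with it, one of -1.25 (edgeR adjusted p = 0.269, and 5.41e-05 with the block). Vtn, a ligand of the Itgb3 integrin, was itself not detectable in these cultures.

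Among other matricellular glycoproteins, 12 of 20 were tested, 1 was higher and 0 were lower, with a median log2 fold change of -0.17. With the replicate block 5 were higher and 5 lower. The shares of all genes called were 5.00% higher and 6.69% lower, or 15.1% and 19.1% with the block, so that 1 of 12 without the block was near the background. The gene that passed in both fits was Ccn4 (WISP1), from 8319, 8227 and 9303 to 19776, 21864 and 16997 normalized counts, a log2 fold change of 1.18 (SE 0.11, edgeR adjusted p = 0.00379). Spp1, which encodes osteopontin, was the gene of this list with the highest level and went from 284864, 158830 and 223332 in CTL to 115529, 49966 and 111624. Its log2 fold change of -1.27 had an adjusted p-value of 0.0835 from edgeR and 0.000342 with the block. Ccn2 (CTGF), often used as a readout of TGF-β, had a log2 fold change of 0.18 (edgeR adjusted p = 0.22, 0.0438 with the block). Sparcl1, the nearest relative of Sparc, had at most 6 reads in any library and was not tested.

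In a list of 16 microfibril genes, 15 were tested, 1 was higher and 2 were lower, and the block gave 5 higher and 3 lower, against the same shares of all genes. Of these, 1 of 15 higher without the block and 3 of 15 lower with it were near the background. The higher call was lost without CTL replicate 1 or 2 or TGF-β1 replicate 1 or 2, and both lower calls were lost without TGF-β1 replicate 1. Efemp1 (fibulin 3) fell by 3.03 on the log2 scale (SE 0.42, edgeR adjusted p = 0.0119), from 358, 581 and 251 to 29.5, 64.2 and 51.6 normalized counts, and Fbln7 fell by 2.89 (adjusted p = 0.013), from 30.9, 63.5 and 32.7 to 4.06, 5.18 and 7.51, near the lowest counts that can be compared. Ltbp2, a latent TGF-β binding protein family member, rose by 0.42 (adjusted p = 0.0194), all from edgeR. Fbln2 and Ltbp3, with the highest levels of the list, had log2 fold changes of 0.32 (adjusted p = 0.0698) and 0.01 (adjusted p = 0.956), also from edgeR. A check list of known TGF-β response genes had 5 of 11 higher and 0 lower, and 10 higher and 1 lower with the block. The lower gene was Id1, with a log2 fold change of -0.24 (edgeR adjusted p = 0.134, 0.0461 with the block). The shares of all genes were 5.00% and 6.69%, or 15.1% and 19.1% with the block. The list had 1 higher without CTL replicate 1 or TGF-β1 replicate 1, and 3 without CTL replicate 2. Of the 5 higher genes, Pmepa1 rose by 0.87, Tgfb1 by 0.80, Skil by 0.76 and Smad7 by 0.55 in log2 fold change (edgeR adjusted p = 0.0105, 0.0225, 0.00379 and 0.014). Pmepa1, Skil and Smad7 encode known regulators of TGF-β signaling. Tagln and Acta2, the highest in level, were at 0.87 and 0.55 (edgeR adjusted p = 0.139 and 0.234) and passed with the block (adjusted p = 2.64e-05 and 0.00038). Ltbp2 stands on both lists.

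**Figure D4:**
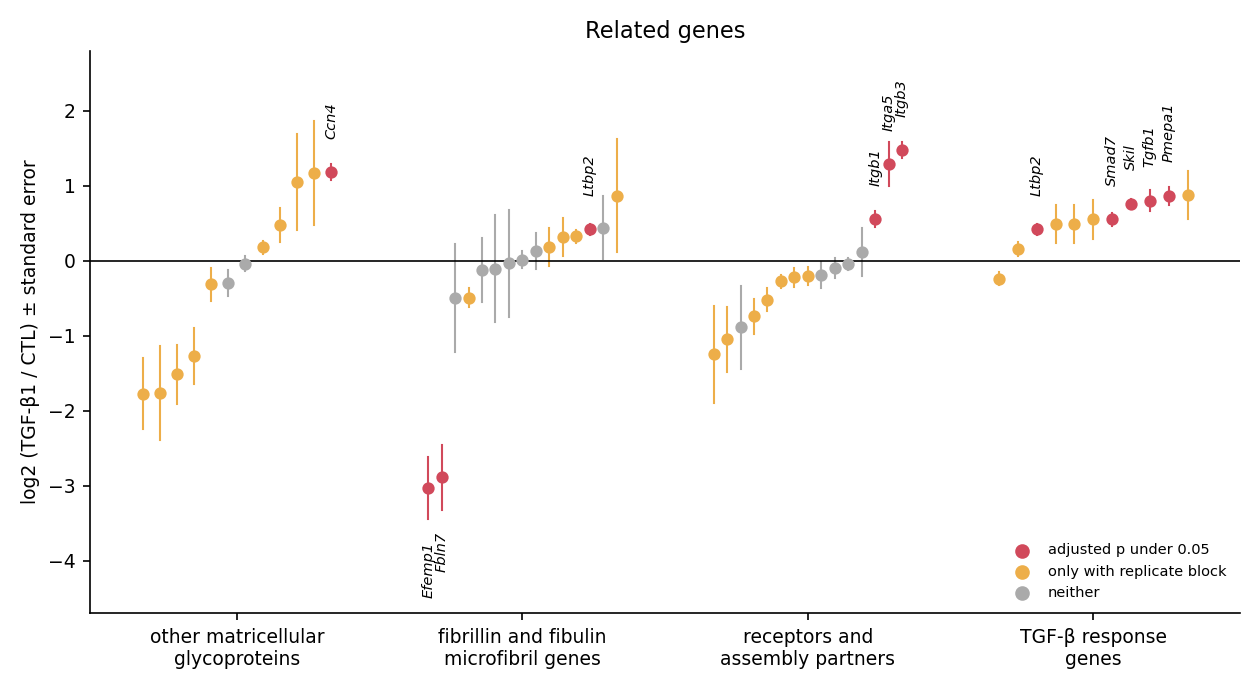
The vertical axis gives edgeR's log2 (TGF-β1 / CTL) with its standard error for each tested gene of 4 related lists, ordered within a list. Red points passed an adjusted p-value of 0.05 without the block, yellow points did so only with it, and grey points in neither fit; Itgb3, Itga5 and Ccn4 are high, and Efemp1 and Fbln7 are near -3.

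Without both replicate 2 cultures, which stood apart, Fn1, Tnc and Thbs2 had log2 fold changes of 1.06, 1.61 and 2.01 and stayed past the threshold (edgeR adjusted p = 0.00375, 0.00133 and 0.00919). The blocked fit of these 4 cultures, chosen after seeing the data, gave 6 of the 9 higher and 1 lower, as with all cultures. Leaving out both replicate 1 cultures, without the block, left 0 of 15961 genes past the threshold and 1938 at an unadjusted p-value under 0.05, and the adjusted p-values of Fn1, Tnc and Thbs2 became 0.238, 0.197 and 0.252. With the block, leaving out that number again gave 6 higher and 1 lower of the 9.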

How the data were processed

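RNA was measured in 3 CTL and 3 TGF-β1 cultures of RTECs. Per the labels and the study's methods, 100 ng of RNA per sample was made into poly(A) libraries and sequenced as 50-bp single reads, and the authors trimmed with Trim Galore, aligned to GRCm38 with STAR 2.4.1d and deposited raw read counts per gene from HTSeq 0.6.1. The annotation release and the strand setting are not given in the sources used here. HTSeq drops reads that fall on overlapping genes, and its summary lines, which were left out, held 25.4% to 25.9% of each file's total. Reads on genes ranged from 28313080 to 34183497, so that a count of 0 allows up to 0.0878 to 0.106 CPM.

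Coordinates and exon lengths came from GENCODE M21, in which 46005 of 46517 gene identifiers matched. The exon length of a gene was the union of all its annotated exons. Genes were filtered with filterByExpr, scaled by TMM and tested with robust quasi-likelihood fits in edgeR 4.0.16 (two-sided, Benjamini-Hochberg adjusted over all 15862 genes, threshold 0.05). Ratios of 2 genes were tested by exact permutation. Labels share replicate numbers, and the correlations of deviations from the group means were 0.308, 0.663 and 0.546 for equal numbers and -0.593 to 0.198 for unequal ones. The numbers were therefore taken to pair the cultures, an inference from the same data that the blocked fits use. It was weakest for CTL replicate 1, at 0.308 with TGF-β1 replicate 1 and 0.198 with TGF-β1 replicate 3. The fit with a replicate block is given where it changed a call or a count. DESeq2 1.42.0, other scalings and filters and left-out cultures were alternatives. Fits were also run on simulated counts with 1 dispersion of 0.04 and no replicate effect, so these do not check the block. Of 200 genes changed there, edgeR recovered 71% and 5.96% of its calls were false. The values were 64.5% and 3.73% with the block and 68% and 8.72% with DESeq2. No 2 libraries agreed within sampling noise. The members and lists were chosen with earlier results of these data known. Related genes were named when called without the block (at most 4 a list) together with the 2 others of highest level. Protein sequences were not used here, and 1 gene of the TGF-β response list is not reported here and was left out of its counts.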

Additional observations from a re-analysis of the deposited data

How the results depend on the processing

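Fn1, Tnc and Thbs2 kept their direction in all 18 alternatives, and Fn1 and Tnc stayed past the threshold in 17 of them. Without replicate 1 in both groups their log2 fold changes were 0.97, 1.67 and 2.42 with adjusted p-values over 0.05 from edgeR. Thbs2 also missed it with no filter beyond 1 count (2.43) and without replicate 3 in both groups (2.78), and it ranged from 1.90 to 2.64 over the fits leaving out 1 culture. With the replicate block, and with the block without replicate 1, 2 or 3 in both groups (chosen after seeing the data), calls were gained by Postn (0.47, 0.47, 0.56 and 0.38), Sparc (0.48, 0.48, 0.50 and 0.48), Fbln1 (-1.34, -1.33, -1.42 and -1.30) and Fbn1 (0.87, 0.90, 0.86 and 0.85), and the block changed no other call among the 9 genes. Fbn1 also passed with DESeq2 (0.88) and without replicate 2 in both groups (0.85). Thbs1, never past the threshold, turned to 0.034 without replicate 3 in both groups, both with and without the block, and ranged from -0.074 to 0.012 over the fits leaving out 1 culture, as Tgfbi ranged from -0.35 to 0.058.

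Counts of calls moved more. Among the 9 genes, 6 were higher and 1 was lower with the block, also without any 1 replicate number, and 0 were higher without replicate 1 in both groups (3 at an unadjusted p-value). Over all genes, edgeR called 793 higher and 1061 lower, 507 and 1467 with library size only, 2388 and 3037 with the block, 0 and 0 without replicate 1 in both groups (1938 unadjusted), and 95 and 190 without replicate 3 in both groups. DESeq2 called 1201 and 1521. The block without replicate 1, 2 or 3 gave 1026, 2288 and 2583 higher and 1649, 2718 and 3258 lower, and the fits leaving out 1 culture ranged from 109 to 516 higher and from 186 to 807 lower. In the related lists the block gave 5 higher and 5 lower of the other matricellular genes (4 lower with DESeq2), 5 higher of the microfibril genes, 7 lower of the receptors and 10 higher and 1 lower of the TGF-β response genes. The block called 15.1% of all genes higher and 19.1% lower. Without replicate 1 in both groups each list had 0 calls, and without replicate 3 in both groups the microfibril list had 0. Over the fits leaving out 1 culture, the lists had 0 to 2 (microfibril), 1 to 3 (receptors) and 1 to 5 (TGF-β response) genes higher, and 0 to 2 (microfibril) and 0 to 1 (other matricellular) lower. Without replicate 3 in both groups 1 receptor and 2 response genes were higher, and without replicate 2 in both groups 2 other matricellular and 2 microfibril genes were higher and 2 other matricellular genes and 1 receptor lower. Depth limits Vtn, Tgfbi and Fbln1, whose counts are low.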

Other observations

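The fibulins did not move as 1 family, a description of genes chosen after their values were seen. Beside Efemp1, Fbln7 and Fbln1, which were lower, Fbln5, a fibulin of elastic fibers, had 2126, 2895 and 2552 normalized counts in CTL and 1602, 1914 and 1851 with TGF-β1, a log2 fold change of -0.50 (edgeR adjusted p = 0.0571, 0.000284 with the replicate block). Fbln2 and Efemp2 had log2 fold changes of 0.32 and 0.18 and passed only with the block (adjusted p = 0.00541 and 0.0123). The more abundant Fbln2 therefore lay on the opposite side of 0 from the scarce Fbln1 and Fbln7.

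The CCN genes, which encode matricellular proteins, also differed in direction. Ccn4 rose and Ccn1 had a log2 fold change of -0.04 (edgeR adjusted p = 0.839). Ccn3 and Ccn5, both under 133 normalized counts in every culture, stood at -1.77 and -1.51 in log2 fold change (edgeR adjusted p = 0.0644 and 0.0589, and 0.00261 and 0.00762 with the block). Thbs3, a pentameric relative of the thrombospondins, had a log2 fold change of -0.31 (edgeR adjusted p = 0.406, 0.0219 with the block), while Thbs2 rose.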
